A study of Mus musculus with 16 samples.

Results

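Adrenal glands that lose Dicer in their steroid-producing cells were followed here across 1 day of gestation, from E15.5 to E16.5, by comparing the 4 knockout (KO) arrays of the later stage with the 4 of the earlier stage over every measured gene. These were 8 of the series' 16 arrays, the rest being the matching controls. Each of the 18193 named genes was represented by its brightest probe set, 13642 rose far enough above the dimmest signals to be tested, and none was picked for how it behaved. KO embryos carried Sf1-Cre with Dicer lox/lox, and the controls were cre- littermates that the labels call WT, although the matings given in the labels mean that they could carry lox alleles as well. All mice were C57BL/6, the morning a plug was found counted as E0.5, and no group received a treatment. Sf1-Cre acts where the Sf1 promoter is on, so that chromaffin cells, vessels, blood and macrophages of a KO gland keep an intact Dicer gene unless they once expressed Sf1. The glands of a litter were pooled by genotype, and 4 litters were taken at each stage. Total RNA of each pool was hybridised to an Affymetrix Mouse430_2 array. Signals are on the log2 scale throughout, where 1 unit is a doubling, and levels of different genes are not comparable because each probe set has a brightness of its own.

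Dicer cuts precursor hairpins into mature microRNAs, which pair with messenger RNAs and lower their stability and translation. The fetal adrenal cortex grows by cell division beneath its capsule while its inner cells make steroids from cholesterol under corticotropin. Chromaffin cells collect in the centre, and macrophages and red cells reach the gland with its blood supply. Over these days of mouse gestation blood formation also passes from primitive red cells of the yolk sac, which use embryonic globins, to definitive red cells of the liver, which use adult ones.

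The libraries were checked first. Dicer1 averaged 8.23 ± 0.16 in KO glands at E15.5 and 8.26 ± 0.14 at E16.5 (SD, n = 4), a difference of 0.02 ± 0.11 (SE). Against controls it was lower by a log2 difference of -0.35 at E15.5 (limma adjusted p = 0.0638) and -0.36 at E16.5 (limma adjusted p = 0.0414), and where its probe set lies relative to the deleted exons was not analysed here. Defining cortical genes were bright on every KO array, with Star, which carries cholesterol into mitochondria, at 13.15 to 13.80. Correlations between KO arrays of a stage were 0.986 to 0.996. The 3′ minus 5′ signal of control probe sets, which grows as RNA breaks down, was 1.62 on KO E16.5 replicate 1, 0.43 to 0.89 on the other KO E16.5 arrays and 0.19 to 0.92 at E15.5 (exact permutation p = 0.2, two-sided, smallest possible 0.0286). In controls it was 3.15 on E16.5 replicate 2 and 0.25 to 1.07 on the other arrays, and that library also had the highest mean over the adipose and muscle list, at 10.12 against 6.91 to 8.22 in the rest of its group. Genes of the liver stood high on KO E15.5 replicates 1 and 4 and on KO E16.5 replicates 1 and 2, as a mean over the list of 8.86 to 10.21 against 5.85 to 6.92 on the other 4 KO arrays. Xist was near the floor on KO E15.5 replicate 2 and the Y-linked genes near it on KO E16.5 replicate 1, so the pools were not alike in sex.

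Change over the day in KO glands was almost entirely a gain, and Lgals3 and Cd163 of the macrophage list were among its largest rises. Of the 13642 genes tested, 119 rose, or 0.872%, and 4 fell, or 0.0293% (limma, adjusted p under 0.05, n = 4 pools a group). A doubling or more was reached by 27 of those that rose, and a halving or more by 2 of those that fell. At an unadjusted p under 0.05 the excess of rises was smaller, with 7.09% of genes higher and 2.42% lower. All 4 E16.5 arrays lay above all 4 E15.5 arrays for 5.53% of genes and below them for 2.24%. Of the 119 genes that rose 118 were without overlap, as were all 4 that fell, and the largest rises and falls were picked among those. Where a gene that passed is said below to be without overlap, this describes its values and adds no support. The median over all genes tested was 0.01, which RMA holds near 0 by giving the arrays one distribution. The counts depended on single pools: 68 genes passed without KO E15.5 replicate 1, 56 without KO E15.5 replicate 2, 78 without KO E16.5 replicate 2, 53 without KO E16.5 replicate 3 and 72 without KO E16.5 replicate 4. Of the 119 genes that rose, 48 passed in each of the 16 fits that leave out 1 array, and all 119 stayed higher in each of them.

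**Figure D1:**
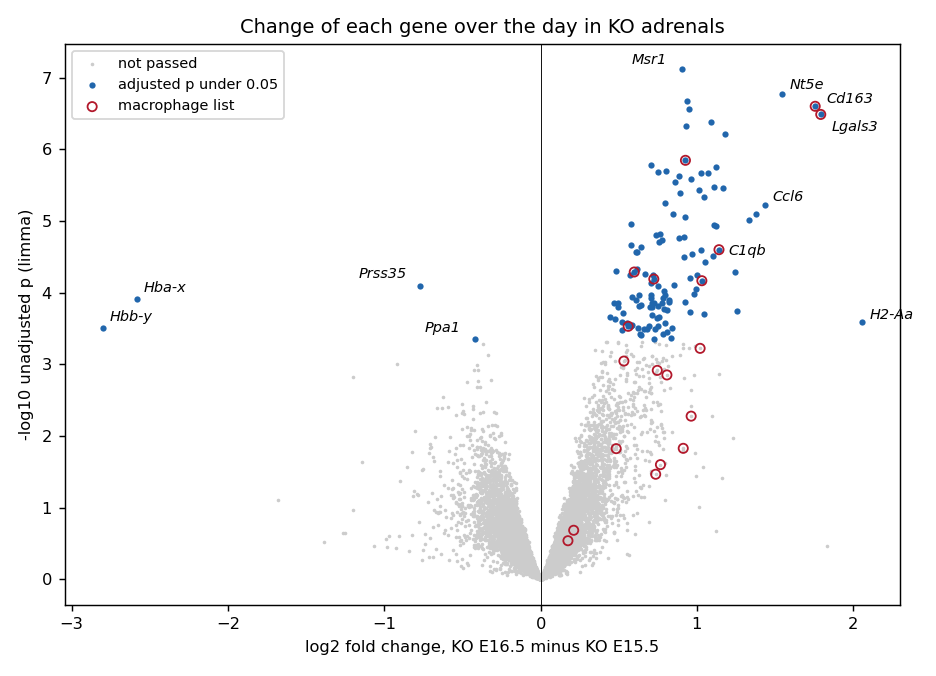
Each point is a gene tested, placed by its log2 fold change (KO E16.5 minus KO E15.5) and by -log10 of its unadjusted p from limma; blue points passed at an adjusted p under 0.05 and red rings mark the macrophage list. The 119 genes that rose sit to the right, the 4 that fell to the left, and every ring lies above 0.

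Macrophages are resident phagocytes that clear dying cells and debris, and all 19 genes of their list were higher at E16.5. Of these 19, 8 rose and 0 fell, where 0.872% of all genes rose. At an unadjusted p under 0.05, 17 of the 19 were higher, against 7.09% of all genes. The median member was 0.77 higher on the log2 scale against 0.01 over all genes tested. As a mean over the list, KO arrays ran from 7.94 to 8.51 at E15.5 and from 8.93 to 9.25 at E16.5, with no overlap. In whole glands, more macrophages and more RNA per macrophage cannot be told apart. The count of 8 fell to 5 without KO E15.5 replicate 2, to 4 without KO E16.5 replicate 3 and to 3 without the 4 liver-high KO arrays, an exclusion chosen after the data were seen, while the median stayed between 0.65 and 0.89. That exclusion left only replicates 2 and 3 of KO E15.5 and replicates 3 and 4 of KO E16.5, so that fewer arrays alone could cost calls.

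Promoter sequence is shown for 4 genes that rose in these glands, C1qb, Fcna, Ccl6 and Ms4a6b, because each carries the letters AGGAAGT, the core of many sites bound by PU.1, a transcription factor that myeloid cells depend on. The stretches are the 200 bases before each start site in RefSeq (GRCm38.p6), 5′ to 3′ on the gene's strand. Capitals mark AGGAAGT or, where it lies on the other strand, its reverse complement. They come from chr4:136886201-136886400 (minus strand, C1qb), chr2:25627975-25628174 (minus strand, Fcna), chr11:83593088-83593287 (minus strand, Ccl6) and chr19:11518359-11518558 (plus strand, Ms4a6b).
C1qb: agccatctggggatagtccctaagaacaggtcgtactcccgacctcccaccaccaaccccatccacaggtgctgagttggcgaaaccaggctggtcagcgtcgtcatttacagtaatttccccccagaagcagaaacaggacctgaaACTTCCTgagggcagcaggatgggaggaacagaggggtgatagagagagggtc
Fcna: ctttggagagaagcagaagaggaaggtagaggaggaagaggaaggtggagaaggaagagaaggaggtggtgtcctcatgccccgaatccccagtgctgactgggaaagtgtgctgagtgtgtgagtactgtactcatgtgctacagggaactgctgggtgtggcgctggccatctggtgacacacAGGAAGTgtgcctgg
Ccl6: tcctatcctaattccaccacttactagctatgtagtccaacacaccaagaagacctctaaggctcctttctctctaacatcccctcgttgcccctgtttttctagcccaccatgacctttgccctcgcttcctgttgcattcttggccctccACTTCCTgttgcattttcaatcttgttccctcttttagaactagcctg
Ms4a6b: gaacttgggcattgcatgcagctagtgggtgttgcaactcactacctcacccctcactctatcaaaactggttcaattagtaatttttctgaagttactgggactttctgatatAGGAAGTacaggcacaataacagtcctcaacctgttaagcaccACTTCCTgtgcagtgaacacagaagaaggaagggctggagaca
The match starts 53 bases before the start site in C1qb, 15 in Fcna, 48 in Ccl6, and 86 and 43 in Ms4a6b. Searched on both strands of the 250 bases before each RefSeq start site, AGGAAGT was found in 25 of the 119 promoters that matched 95 of the genes that rose, or 21.0%, against 6.92% of the 14011 promoters of genes tested and 7.69% of all 32851. A gene can have several promoters in that count. Counted by gene, 22 of those 95 carried it, against 902 of the 10947 genes tested that had a promoter. The difference was not tested. The 4 genes shown were chosen after their promoters were read, and a match is a description, not a site.

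Lgals3, Cd163 and C1qb rose most within the list. Lgals3, which encodes the sugar-binding protein galectin-3, lay at 7.72, 8.24, 7.72 and 8.74 at E15.5 and at 9.65, 9.88, 10.02 and 10.04 at E16.5. Every E16.5 pool exceeded every E15.5 pool. The rise was 1.79 ± 0.21 (SE), or 3.46-fold (limma adjusted p = 0.000737). Cd163, the scavenger receptor that takes up haemoglobin bound to haptoglobin, lay at 5.86, 5.99, 5.62 and 6.03 at E15.5 and at 7.53, 7.94, 7.77 and 7.28 at E16.5. The stages were again apart on all arrays, and the rise was 1.76 ± 0.21, or 3.38-fold (limma adjusted p = 0.000735). C1qb, a chain of the first complement component, moved from 9.25, 9.08, 9.34 and 9.61 to 10.60, 10.80, 10.36 and 10.09. Its groups did not overlap either, and it rose 2.21-fold (limma adjusted p = 0.00812), although it did not pass as the mean over its probe sets (limma adjusted p = 0.0538) or without the 4 liver-high KO arrays (limma adjusted p = 0.167).

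The 5 other list members that rose were Tyrobp, the signalling adaptor of many myeloid receptors, by 1.03, the lysosomal protease Ctss by 0.93, the mannose receptor Mrc1 by 0.72, the F4/80 antigen Adgre1 by 0.60 and Mertk, a receptor for engulfing dying cells, by 0.56. For each of the 5 the lowest E16.5 array exceeded the highest E15.5 array. Ctss passed whichever array was left out. Tyrobp did not pass without KO E15.5 replicates 1 or 3 or KO E16.5 replicates 2 or 3, taken singly (limma adjusted p from 0.0501 to 0.0642). Mrc1 and Adgre1 did not pass without KO E15.5 replicate 2 or KO E16.5 replicate 3 (limma adjusted p from 0.0632 to 0.0742). Mertk passed in 7 of the 16 fits that leave out 1 array, its adjusted p reaching 0.148 without KO E16.5 replicate 3.

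**Figure D2:**
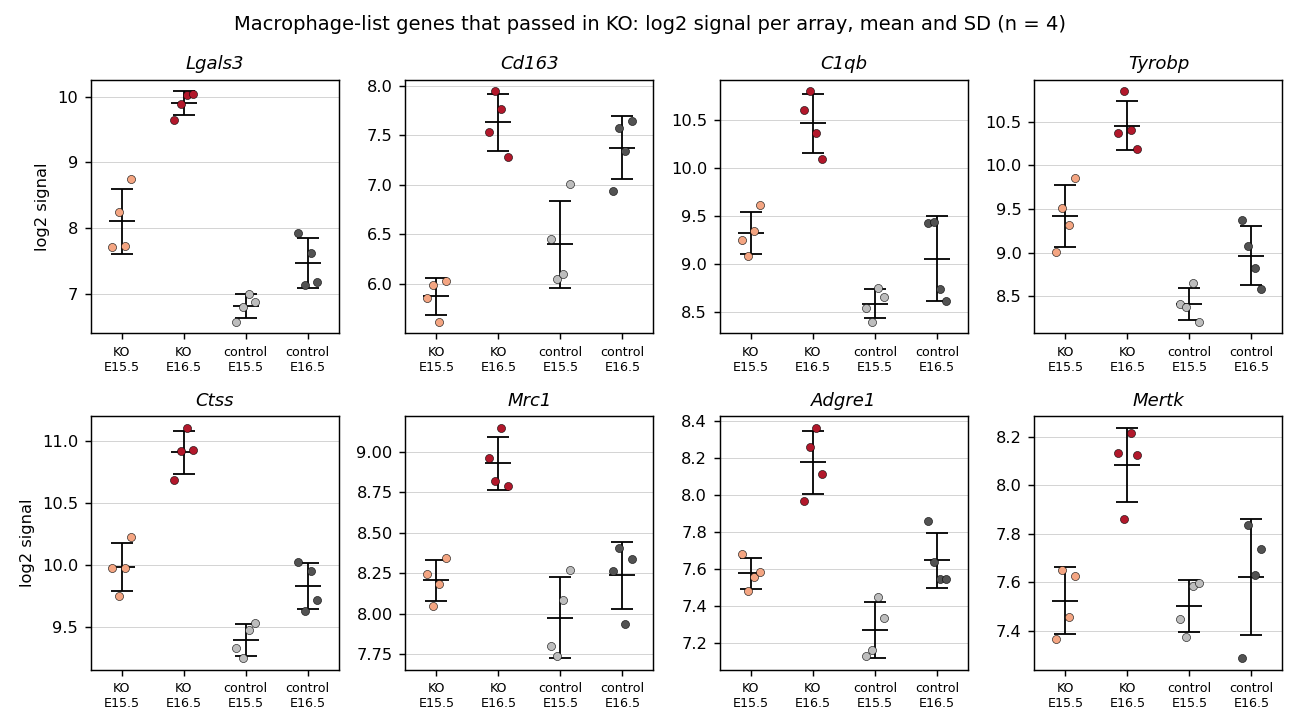
Each panel shows a macrophage-list gene that rose in KO glands, with the log2 signal of each array as a point and the mean and SD of 4 pools as bars, for KO and control at both stages. In all 8 panels the KO E16.5 points lie above the KO E15.5 points, as with Lgals3, at 9.65 to 10.04 against 7.72 to 8.74.

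Members of the list that did not pass were also higher. Aif1, a calcium-binding protein of macrophages, was 1.02 higher, Cd68, a glycoprotein of their lysosomes, 0.96, and C1qa 0.91. Csf1r, the receptor for the growth factor that sustains macrophages, was 0.21 ± 0.16 higher (limma adjusted p = 0.779), at 11.68 to 11.93 at E15.5 and 11.90 to 12.17 at E16.5. Those ranges overlap. Cd14, the coreceptor for bacterial lipopolysaccharide, was 0.17 higher. The members thus differed widely among themselves, from 0.17 for Cd14 to 1.79 for Lgals3.

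Several of the largest rises lay outside the macrophage list. Ccl6, a chemokine of myeloid cells, lay at 6.93, 7.40, 7.47 and 8.10 at E15.5 and at 8.86, 9.03, 8.86 and 8.90 at E16.5. The 4 later pools were nearly alike, and the rise was 1.44 ± 0.22, or 2.71-fold (limma adjusted p = 0.00308). Fcna, a ficolin that starts the lectin pathway of complement, stood at 6.93, 6.85, 6.95 and 7.81 and then at 8.16, 8.51, 8.81 and 8.58, a rise of 1.38 ± 0.21 (limma adjusted p = 0.00384). Its E15.5 replicate 4 lay apart from the other 3 E15.5 pools but still below every later pool. Clec7a, which encodes the beta-glucan receptor dectin-1, rose 2.18-fold (limma adjusted p = 0.0049), Slc15a3, a lysosomal transporter of peptides and histidine, 2.27-fold (limma adjusted p = 0.000928) and Ms4a6d 2.16-fold (limma adjusted p = 0.00489), although the mean over the probe sets of Ms4a6d gave a log2 rise of only 0.63. Slc40a1, ferroportin, the exporter that returns iron from macrophages to plasma, moved from 8.79 to 9.40 at E15.5 to 10.01 to 10.36 at E16.5 and rose 2.18-fold (limma adjusted p = 0.00183). All of these passed whichever array was left out.

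Cd48, an adhesion molecule of leukocytes, was at 5.41, 5.47, 5.97 and 6.70 at E15.5 and at 6.80, 7.54, 7.33 and 6.90 at E16.5. The highest early pool came close to the lowest late pool without reaching it. The rise of 1.25 ± 0.26 (limma adjusted p = 0.0269) did not pass when any of KO E15.5 replicates 1, 2 or 3 or KO E16.5 replicates 2, 3 or 4 was left out (limma adjusted p from 0.0513 to 0.12). Ptprc, the pan-leukocyte phosphatase CD45, rose by 0.75 ± 0.10 (limma adjusted p = 0.00183), from 6.94 to 7.21 at E15.5 to 7.69 to 7.99 at E16.5. Msr1, the class A scavenger receptor, had the smallest p of the comparison and rose by 0.91 ± 0.10 (limma adjusted p = 0.000735), from 6.91 to 7.30 to 7.89 to 8.12, but by 0.51 as the mean over its probe sets. Neither pair of ranges overlaps. Ptprc and Msr1 were named after their values were seen, as were the pore-forming Mpeg1, which rose by 1.09, the tetraspanin Cd53, by 0.92, the integrin subunit Itgb2, by 0.79, and the receptors Tlr1 and Tlr13, by 0.82 and 0.70. Of the 16 fits that leave out 1 array, Cd53 passed in 11, Itgb2 and Tlr13 in 12 and Tlr1 in 9, and every array whose omission ended a call was a KO array (limma adjusted p up to 0.112).

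In the list of MHC class II genes, which serve antigen presentation, a single member passed. All 5 tested members of the MHC class II list, which encode the molecules that show peptides to helper T cells, were higher at an unadjusted p under 0.05, against 7.09% of all genes. Their median was 0.66, and 1 rose. That gene, H2-Aa, the alpha chain of I-A, rose by 2.06 ± 0.44, or 4.16-fold, on its brightest probe set (limma adjusted p = 0.0348) and by 1.07 as the mean over its probe sets. Its values were 6.47, 6.59, 4.52 and 6.74 at E15.5 and 7.11, 8.59, 8.54 and 8.30 at E16.5. The stages did not overlap, but E15.5 replicate 3 was far below the other early pools and E16.5 replicate 1 far below the other late ones. Its call was lost when any of KO E15.5 replicates 1, 2 or 3, control E15.5 replicate 2 or KO E16.5 replicates 2, 3 or 4 was left out (limma adjusted p from 0.0505 to 0.136), and without KO E15.5 replicate 3 the rise was 1.54. Its partner H2-Ab1 was 0.69 higher (limma adjusted p = 0.0998), H2-Eb1 0.66 (limma adjusted p = 0.13) and the invariant chain Cd74 0.47 (limma adjusted p = 0.267). With KO E16.5 replicate 1 left out 3 members of the list passed, and with any of the 7 arrays just named left out 0 did.

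Other immune lists were higher without members that passed, or with few. In the lysosome list 2 of 16 rose, Ctss and Grn, the precursor of granulins, where 0.872% of all genes rose. Higher were 14 of the 16, where 7056 of all 13642 genes tested were higher, and the median was 0.23. At an unadjusted p under 0.05, 5 of the 16 were higher. Grn rose by 0.52 ± 0.11 (limma adjusted p = 0.0341) but passed in only 8 of the 16 fits that leave out 1 array. Among granulocyte and mast cell genes 0 of 11 passed and 4 had an unadjusted p under 0.05, all higher. The median there was 0.64, led by the mast cell chymase Cma1 at 1.14, S100a9 at 1.01 and Ngp at 1.00. In the interferon response list 0 of 14 tested members passed and 7 were higher at an unadjusted p under 0.05. Their median was 0.40, and they were led by Usp18 at 0.76 and Ifi27 at 0.71. For comparison, 7.09% of all genes were higher at that unadjusted threshold. Interferon-induced genes outside the list did rise, and were named after their values were seen. Ifi207 passed whichever array was left out, with rises from 0.76 to 0.95, while Gbp7 and Trim30a each passed in 5 of those 16 fits.

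**Figure D3:**
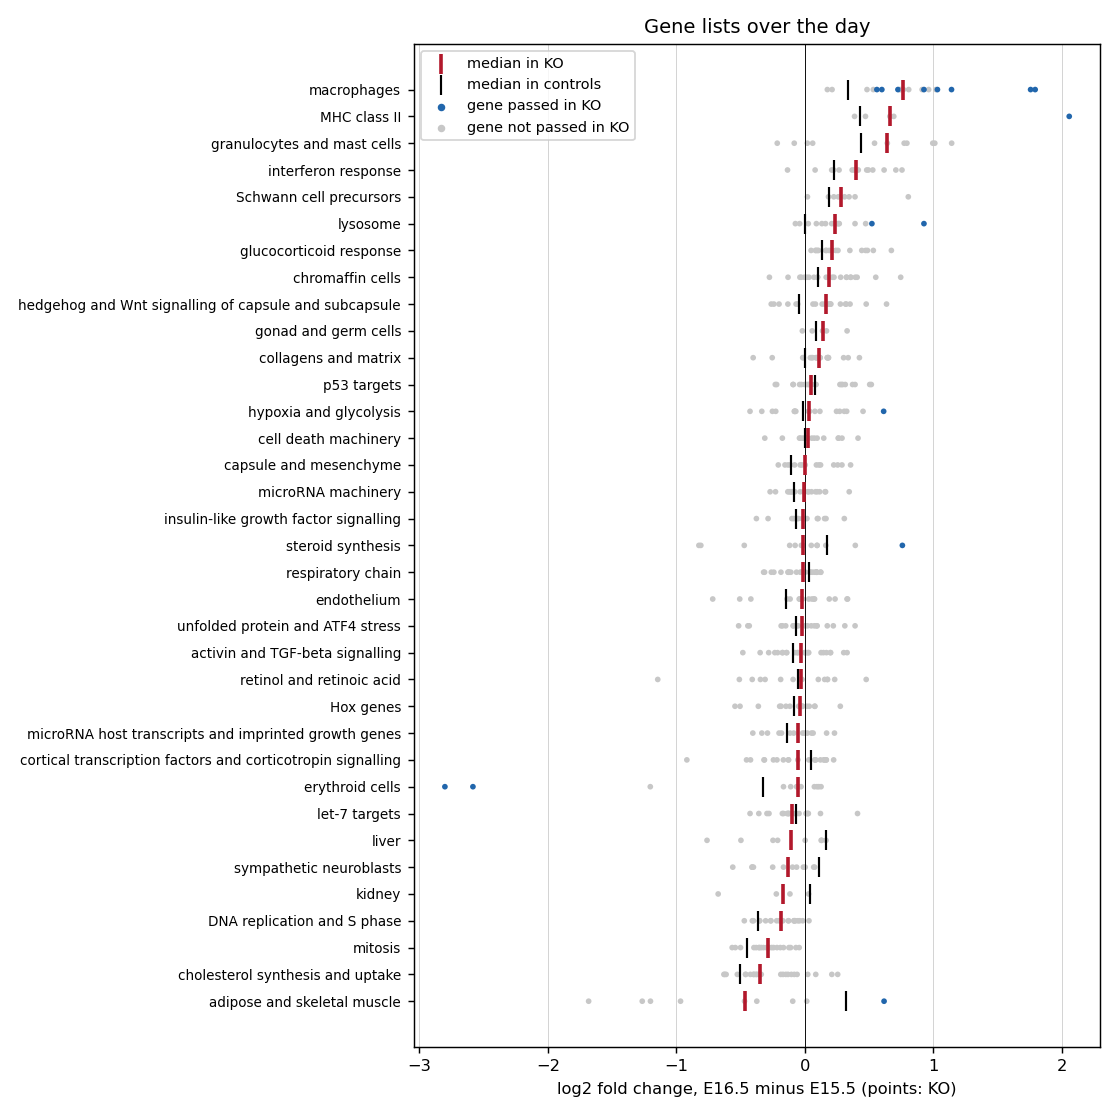
Each line is a gene list, each point a member placed by its log2 fold change in KO glands (E16.5 minus E15.5), blue where it passed; red bars are medians in KO and black bars medians in controls. The macrophage list stands highest at a median of 0.77 in KO and 0.34 in controls, and the medians of mitosis and cholesterol genes lie left of 0 in both genotypes.

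Enzymes and transporters were also among the largest rises. Nt5e, the ectoenzyme CD73 that makes adenosine from AMP, lay at 6.32, 5.96, 6.49 and 6.46 at E15.5 and at 8.30, 7.38, 7.79 and 7.94 at E16.5. No early pool reached a late one, and the rise was 1.55 ± 0.18, or 2.92-fold (limma adjusted p = 0.000735), but only 0.55 as the mean over its probe sets. Cp, the copper protein ceruloplasmin that oxidises iron, rose 2.52-fold (limma adjusted p = 0.00444), from 6.27 to 7.32 to 7.99 to 8.50. Thrsp, a nuclear protein tied to the making of fatty acids, rose 2.25-fold (limma adjusted p = 0.00226), from 7.76 to 8.26 to 8.89 to 9.44. The mean over the probe sets of Thrsp gave 0.67, and without the 4 liver-high KO arrays it did not pass (limma adjusted p = 0.0596). In both, the ranges were apart. Abca8a, a membrane transporter of the ABC family, was at 7.95, 7.76, 7.02 and 7.88 and then at 8.39, 9.31, 8.74 and 9.14, a rise of 1.25 ± 0.23 (limma adjusted p = 0.0132). That call was lost without KO E16.5 replicate 4 (limma adjusted p = 0.0513).

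Abcb1b, a drug and steroid efflux pump of the cortex, rose 2.00-fold in KO glands (limma adjusted p = 0.0134), from 9.11 to 9.62 to 10.04 to 10.77. Without KO E15.5 replicate 2 or 3 it did not pass (limma adjusted p from 0.0501 to 0.0635). It did not reach the control level, which was 11.31 to 11.91 at E15.5 and 11.48 to 12.08 at E16.5. Vcam1, the vascular adhesion molecule that leukocytes bind, rose 2.02-fold (limma adjusted p = 0.00231), from 8.99 to 9.32 to 9.91 to 10.30, while controls averaged 8.61 ± 0.31 and 8.76 ± 0.19 (SD, n = 4). Both were named after their values were seen. Pparg, a nuclear receptor of fat cells and macrophages, rose by 0.62 ± 0.11 (limma adjusted p = 0.00827) and was the 1 member of 9 in the adipose and skeletal muscle list to do so. Ndrg1, which responds to low oxygen, rose by 0.61 ± 0.12 (limma adjusted p = 0.0227) and was the 1 of 18 in the hypoxia and glycolysis list, but the mean over its probe sets gave 0.33 (limma adjusted p = 0.434). It did not pass without any of KO E15.5 replicates 2 or 3 or KO E16.5 replicates 2, 3 or 4 (limma adjusted p from 0.0652 to 0.0853).

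The 4 genes that fell were led by embryonic globins. Hbb-y, the epsilon-like beta-type chain of primitive red cells, lay at 13.52, 13.26, 13.45 and 12.87 at E15.5 and at 11.91, 9.79, 10.04 and 10.16 at E16.5. It was 6.97-fold lower, a log2 change of -2.80 ± 0.61 (limma adjusted p = 0.038). Hba-x, the zeta chain, lay at 8.78, 9.16, 10.51 and 8.75 and then at 7.46, 6.79, 6.37 and 6.25, and was 5.99-fold lower, at -2.58 ± 0.51 (limma adjusted p = 0.0226). For both genes no later pool reached an earlier one, and E16.5 replicate 1 kept the most signal. Hbb-bh1, the third embryonic globin of the list, was at 7.14 to 7.96 and then at 5.94 to 6.76, also without overlap, but its change of -1.20 ± 0.32 did not pass (limma adjusted p = 0.0997).

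Neither globin call survived every omission of a pool. Hba-x did not pass without KO E15.5 replicates 2 or 3 or KO E16.5 replicates 2, 3 or 4, taken singly (limma adjusted p from 0.055 to 0.0918). Hbb-y passed in 5 of the 16 fits that leave out 1 array, and was lost without any KO array but E16.5 replicate 1 and without any control E15.5 array (limma adjusted p from 0.0514 to 0.141), while its change stayed between -3.28 and -2.57.

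The promoters of Hbb-y and Hba-x are shown because these genes moved together and because both carry classic erythroid elements. They are the 200 bases before the RefSeq start sites (GRCm38.p6), at chr7:103853208-103853407 (minus strand, Hbb-y) and chr11:32276400-32276599 (plus strand, Hba-x). Capitals mark the CACCC box, the CCAAT box and the letters GATAA, a core of sites bound by GATA factors, or, for a match on the other strand, the reverse complement.
Hbb-y: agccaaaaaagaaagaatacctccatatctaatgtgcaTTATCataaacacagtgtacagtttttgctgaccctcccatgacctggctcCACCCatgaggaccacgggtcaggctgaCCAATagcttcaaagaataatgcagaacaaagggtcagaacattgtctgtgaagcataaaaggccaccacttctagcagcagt
Hba-x: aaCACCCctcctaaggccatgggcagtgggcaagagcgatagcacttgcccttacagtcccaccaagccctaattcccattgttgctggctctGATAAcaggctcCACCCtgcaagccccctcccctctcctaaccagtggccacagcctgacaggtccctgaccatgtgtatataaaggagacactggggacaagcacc
In Hbb-y the GATAA match begins 162 bases before the start site on the other strand, CACCC begins at 111 and CCAAT at 83. In Hba-x CACCC begins at 198 and at 95, and GATAA at 107. Such short words are common: CACCC was found on either strand in 52.0% of all RefSeq promoters over the same 250 bases, CCAAT in 33.8% and GATAA in 22.6%.

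Besides Hbb-y and Hba-x, no erythroid gene tested passed. Of 13 tested members of the erythroid list 2 fell, where 0.0293% of all genes fell. The heme enzyme Alas2 was at 8.88 to 9.52 and then 8.96 to 9.22 (-0.03 ± 0.28), the band 3 anion exchanger Slc4a1 at 8.55 to 9.51 and then 8.70 to 9.61 (-0.05 ± 0.29), and Klf1, the regulator of adult globin, at 6.02 to 7.25 and then 6.35 to 7.51 (0.13 ± 0.38). Their ranges overlap. The list's median was -0.06, and adult Hba-a1 fell below the filter while Hbb-b1 was not analysed here.

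**Figure D4:**
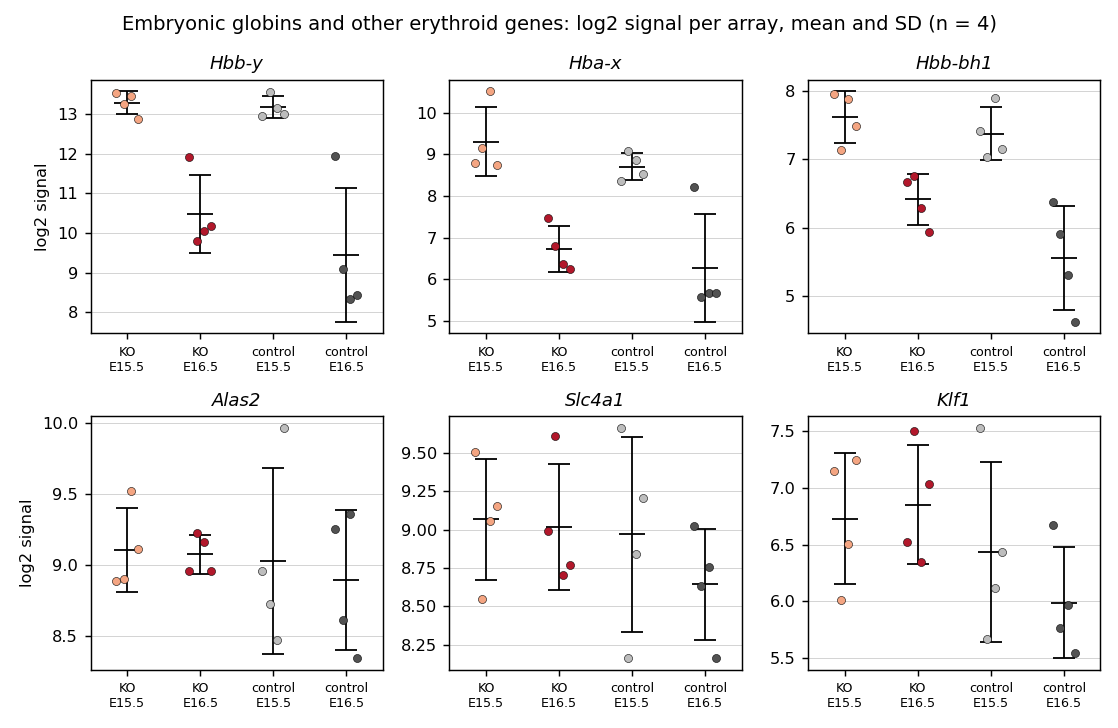
Log2 signal per array (points) with the mean and SD of 4 pools (bars) for the embryonic globins Hbb-y, Hba-x and Hbb-bh1 and for Alas2, Slc4a1 and Klf1, by genotype and stage. The 3 globins are lower at E16.5 than at E15.5 on every KO array, with Hbb-y at 9.79 to 11.91 against 12.87 to 13.52, while the other 3 genes overlap between stages.

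The remaining falls were of single genes. Prss35, of the serine protease family, stood at 10.05, 10.04, 10.72 and 10.03 at E15.5 and at 9.64, 9.50, 9.40 and 9.20 at E16.5. The groups were apart, and it fell by 0.77 on the log2 scale (limma adjusted p = 0.0169), a call lost without KO E16.5 replicate 3 (limma adjusted p = 0.0706) or 4 (limma adjusted p = 0.0662). Ppa1, a pyrophosphatase, was at 11.08, 11.09, 11.09 and 11.10 and then at 10.56, 10.63, 10.70 and 10.80. It fell by 0.42 on the log2 scale (limma adjusted p = 0.0498) and passed in 4 of the 16 fits that leave out 1 array. Next in order of p, and not past the threshold, were Noct at -0.37 (limma adjusted p = 0.0539), the replication checkpoint adaptor Clspn at -0.33 (0.0688), Nr4a1 at -0.92 (0.0783), Tex30 at -0.41 (0.0799), Lsm11 at -0.43 (0.0882) and Hes6 at -0.40 (0.0882). Nr4a1, an immediate early nuclear receptor that corticotropin induces in cortical cells, was at 11.57 to 12.27 and then at 10.74 to 11.30, without overlap.

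Steroid-making genes went in both directions over the day in KO glands, from -0.82 to 0.76, and most did not pass. Of 13 tested members 1 rose, Hsd11b1, which regenerates active glucocorticoid, by 0.76 ± 0.16 (limma adjusted p = 0.0307), and the list's median was -0.01. Hsd11b1 did not pass without KO E15.5 replicates 1, 2 or 3 or KO E16.5 replicates 2, 3 or 4, taken singly (limma adjusted p from 0.0532 to 0.105). Cyp11a1, which cleaves the cholesterol side chain, differed by -0.12 ± 0.22, Hsd3b1 by -0.03 ± 0.08 and the 21-hydroxylase Cyp21a1 by 0.09 ± 0.24. Lower values that did not pass were those of Cyp11b1, the last enzyme of corticosterone synthesis, at 12.41 to 13.15 and then 11.86 to 12.50 (-0.47 ± 0.16, limma adjusted p = 0.271), of the aldosterone synthase Cyp11b2, at 6.47 to 7.68 and then 5.77 to 6.71 (-0.81 ± 0.40, limma adjusted p = 0.557), and of Cyp17a1 (-0.82 ± 0.31, limma adjusted p = 0.337). Nr5a1, which encodes Sf1 itself, was at 10.92 to 12.38 and then 10.87 to 11.56 (-0.24 ± 0.33).

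Akr1d1, a steroid 5-beta-reductase, and Akr1c18, which inactivates progesterone, were low in KO glands on both days. Akr1d1 was at 3.01 to 3.49 and then 3.11 to 3.62 in KO, near the floor of the arrays, against 5.68 to 9.66 and then 8.95 to 10.27 in controls. Akr1c18 was at 5.02 to 5.73 and then 5.58 to 6.08 in KO, against 5.91 to 8.17 and then 7.98 to 9.34 in controls. Their changes over the day were 0.16 and 0.39 in KO and 1.82 and 1.60 in controls, of which none passed. The difference between genotypes in that change did not pass for either gene.

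Cholesterol and cell division genes were lower at E16.5 without passing. In the cholesterol list 20 of 24 were lower, 9 of them at an unadjusted p under 0.05, where 2.42% of all genes were, and the median was -0.35. Its largest differences were those of Tm7sf2 at -0.63, Idi1 at -0.62 and Fdps at -0.61, all enzymes of the pathway. Of mitosis genes 22 of 22 were lower, 6 of them at that unadjusted threshold, and the median was -0.29, as with Ube2c at -0.57 and Plk1 at -0.54. Of S phase genes 22 of 23 were lower, 3 of them at that threshold, and the median was -0.19, as with Rfc4 at -0.47 and Pcna at -0.41. Controls went the same way, with medians of -0.51, -0.45 and -0.36, and there Tm7sf2, Lss and the replication licensing gene Cdc6 fell (limma adjusted p = 0.0428, 0.0254 and 0.0344). Control E16.5 replicate 2, the library of highest 3′ minus 5′ signal, was lowest of its group on each list. Its means were 9.32 against 9.53 to 9.86 for cholesterol, 8.88 against 9.24 to 9.42 for mitosis and 9.29 against 9.58 to 9.63 for S phase. The number of control calls depended on single pools, as given below.

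Listed genes that bear on microRNAs did not pass, and mature microRNAs were not measured here. Of 22 tested let-7 targets 0 passed and 2 were lower at an unadjusted p under 0.05, with -0.10 as the median. Nr6a1, an orphan nuclear receptor of that list, lay at 9.14, 9.31, 9.23 and 9.17 in KO at E15.5 and at 9.22, 8.92, 9.16 and 9.14 at E16.5. These overlap (-0.10 ± 0.31). Both stages were far above controls, which ran from 5.57 to 5.79 at E15.5. At E16.5 controls were at 7.75 on replicate 1 and at 5.71 to 5.87 on the other replicates. None of 19 genes of the microRNA machinery passed, with a median of -0.01, and none of 14 microRNA host and imprinted genes, with a median of -0.05, and in each of these lists 1 gene was higher, and 1 other lower, when p was not adjusted. Of p53 targets 0 of 21 passed and 14 were higher, among them Perp at 0.52 and Eda2r at 0.50. Of cell death genes 0 of 17 passed, the largest difference being 0.41 for Bmf. At an unadjusted p under 0.05, p53 targets had 4 of 21 members higher and cell death genes 1 of 17. For the lists of this paragraph, the shares over all genes tested at that threshold were 7.09% higher and 2.42% lower.

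Lists of the other cells of the gland held no member that passed, which does not cover genes outside them. Vgf, a neuropeptide precursor in none of these lists, rose 2.08-fold (limma adjusted p = 0.0102) and was named after its values were seen. It did not pass without KO E15.5 replicate 2 (limma adjusted p = 0.0517). The myelin gene Mbp also rose and is given further below. Among chromaffin genes 17 of 22 were higher, with a median of 0.19, led by the granule protein Scg2 at 0.75 and Pnmt, the enzyme that makes adrenaline, at 0.55, while Th, the enzyme that starts catecholamine synthesis, was level at -0.00. All 8 tested genes of Schwann cell precursors were higher, with a median of 0.28, led by Cdh19 at 0.80. Sympathetic neuroblast genes had a median of -0.13, endothelial genes -0.02, and capsule and mesenchyme genes 0.00. Hedgehog and Wnt genes of the capsule and subcapsule had a median of 0.17, led by Frzb at 0.64 and Rspo1 at 0.48. All 17 glucocorticoid-responsive genes were higher, with a median of 0.21, led by Pdk4 at 0.67. At an unadjusted p under 0.05, where 7.09% of all genes were higher, chromaffin genes had 5 of 22 members higher, Schwann cell precursors 3 of 8 and glucocorticoid response 6 of 17. Capsule and subcapsule signalling had 1 of 20, endothelium 1 of 17, capsule and mesenchyme 2 of 15 and neuroblasts 0 of 12. Lists of collagens, cortical transcription factors, unfolded protein stress, the respiratory chain, Hox genes, retinoic acid, activin and insulin-like growth factor signalling also had no member that passed, with medians from -0.06 to 0.11.

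Genes of neighbouring tissues varied between pools. Liver genes had 0 of 8 members passed and a mean over the list of 6.50 to 9.22 at E15.5 and 5.85 to 10.21 at E16.5. Without the 4 KO arrays on which they were highest, 62 genes passed and 47 of the 123 were among them. Skeletal muscle genes such as Actc1, at -1.68, did not pass, and the mean over the adipose and muscle list was 7.14 to 8.29 and then 6.17 to 7.59. Kidney genes had 0 of 4 tested members passed, but their mean was 6.91 to 7.10 at E15.5 and 6.60 to 6.84 at E16.5, so that every later pool lay below every earlier one. The largest difference was that of Cited1 at -0.68 (limma adjusted p = 0.278), and the proximal tubule receptors Lrp2 and Cubn were below the filter. Gonad and germ cell genes had 0 of 5 passed, with Dazl and Ddx4 below the filter and a mean of 6.44 to 6.57 and then 6.54 to 6.71. Without the 4 liver-high arrays the calls of Cd48, Thrsp, C1qb, Tyrobp, Mrc1, Adgre1, Mertk, Grn, Pparg, Ndrg1, Hsd11b1, Hbb-y, Hba-x and Ppa1 were lost, each with its direction kept. The part of these tissues in the changes was not tested beyond leaving out those arrays. That step also lowered the number of KO arrays at each stage, so the lost calls cannot be tied to liver signal.

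In controls, 13 genes passed over the day, or 0.0953%, of which 6 rose and 7 fell, against an unadjusted 7.85%. That count was 2 without control E16.5 replicate 2, the library with the 3′ minus 5′ signal of 3.15, and 0 without control E15.5 replicates 1, 2 or 3, taken singly. It was 1 without control E16.5 replicate 3 and 5 without replicate 4 of that group. The test of the difference between the 2 genotypes' changes passed for 0 genes, or 0%, with 1.89% at an unadjusted p under 0.05 and 6 genes with array weights, so no change is shown here to belong to KO glands alone. No array enters both changes, but KO and control pools of a stage came from the same litters, so the 2 changes are not independent. Over the 13642 genes tested they correlated at r = 0.55, a description across genes, which are not independent either. How far shared litters enter was not tested. Of the 119 genes that rose in KO, 117 were higher in controls too, or 98.3%, against 51.6% of all genes tested. Their median was 0.79 in KO and 0.35 in controls, where 72 of them had an unadjusted p under 0.05, or 60.5%, and 1, Abca8a, passed. Because the 119 were picked by their KO values, their KO change is overstated, and the gap between the medians is no test.

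**Figure D5:**
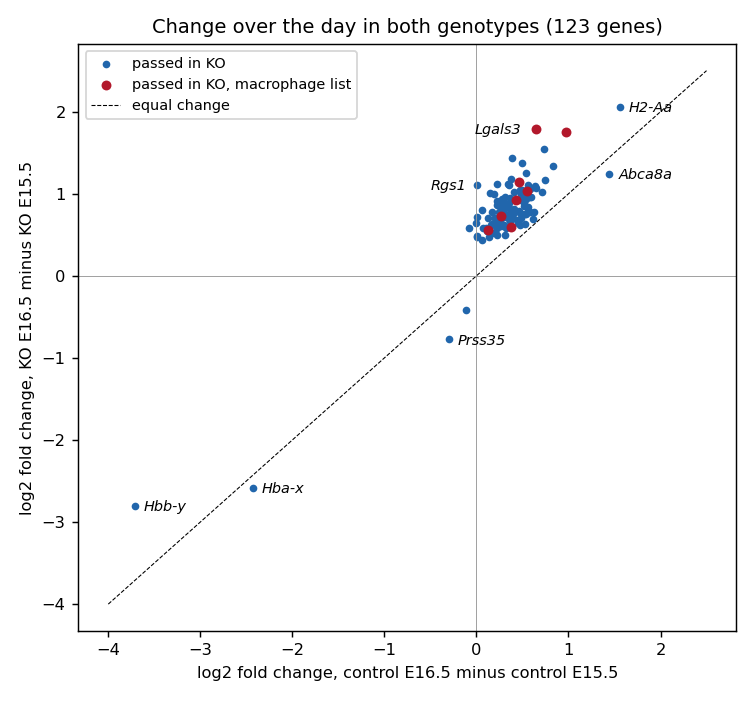
The 123 genes that passed in KO, placed by their log2 fold change over the day in controls (horizontal) and in KO (vertical); the dashed line marks equal change and red points belong to the macrophage list. All but 2 of the genes that rose lie right of 0, and all but 1 of them, Abca8a, lie above the line.

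In controls the macrophage list was higher as well. All 19 members were higher there, with a median of 0.34. The mean over the list ran from 7.53 to 7.73 at E15.5 and from 7.80 to 8.31 at E16.5 in controls, below every KO array of the same stage. Cd163 was 0.97 higher (limma adjusted p = 0.107) and Lgals3 0.65 higher (limma adjusted p = 0.333). The embryonic globins were lower there too: Hbb-y by -3.71 (limma adjusted p = 0.0254), Hba-x by -2.43 (limma adjusted p = 0.106) and Hbb-bh1 by -1.82 (limma adjusted p = 0.0344). Control E16.5 replicate 1 had both the highest macrophage mean of its group, 8.31, and the highest Hbb-y, 11.93 against 8.33 to 9.10.

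Against controls of the same day, which share the KO arrays with the comparison above and so repeat part of it, Lgals3 was 1.29 higher in KO at E15.5 and 2.43 at E16.5, and C1qb 0.74 and 1.41. Cd163 differed by -0.53 and 0.26 and Nt5e by -0.60 and 0.20, and none of these 4 values passed. Hbb-y differed by 0.11 and 1.02 and Hba-x by 0.60 and 0.44, without passing. Prss35 differed by -1.03 and -1.50.

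The 5 genes with the smallest p for the difference between genotypes are given as values. Rgs1, which damps signalling by chemokine receptors, was at 4.77 to 5.56 and then 5.97 to 6.53 in KO, and at 4.17 to 4.45 and then 4.05 to 4.50 in controls. Its change was 1.11 in KO and 0.01 in controls, the smallest unadjusted p being 0.000169 (limma adjusted p = 0.9999). Msr1 changed by 0.91 in KO and differed by 0.26 in controls, Bank1, an adaptor of B cell receptor signalling, by 0.80 and 0.06, and Marchf1, a ligase that removes MHC class II from the surface, by 0.94 and 0.28. The KO change of Marchf1 was 0.48 as the mean over its probe sets. D630024D03Rik, a transcript of no assigned function here, differed by 0.19 in KO and rose by 1.08 in controls. None passed after adjustment over all genes tested.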

How the data were processed

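The deposited table holds log2 signals, and RMA is the method that the submitters' processing notes name for the authors' values, beside limma, with no versions. RMA corrects background, equalises the arrays' distributions and compresses dim signals, which understates changes near the floor. Of 45101 probe sets, 34945 carried a single symbol and 64 were controls. A gene needed a signal above the 40th percentile on 4 or more arrays.

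limma 3.58.1 (R 4.3.3) was fitted with 4 group means over all 16 arrays and moderated by eBayes, with Benjamini-Hochberg adjustment over 13642 genes and two-sided tests. Every adjusted p printed comes from it. On simulated data for this comparison (13642 genes, 5 runs) it recovered 34.3% of changes of 0.5 log2 units, 88.7% of 1 and 99.1% of 2. The number of arrays limits precision (median SE 0.139). The 3′ minus 5′ signal was compared by exact permutation with scipy 1.17.1 in Python 3.11.15.

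Pools of a group share a stage and genotype but come from separate litters. The labels number the pools without saying that a number marks a litter, and same-numbered KO pools of the 2 stages did not deviate together (correlations from -0.13 to 0.03), so no pairing was used. Within a stage, the deviations of same-numbered KO and control pools correlated from -0.39 to 0.39 at E15.5 and from -0.20 to 0.45 at E16.5.

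Named were the 15 largest rises and up to 15 falls among genes that passed without overlap, 6 further lower genes by p, list members that passed or moved most, the 5 smallest p for the difference between genotypes and a few genes always looked at. Of 48 other probe sets of 23 of the named genes, 0 had the opposite sign at an unadjusted p under 0.05. The comparison, the 36 gene lists and this rule were chosen with earlier results of these data known. List genes without a value are not analysed here.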

Additional observations from a re-analysis of the deposited data

Results flagged for a closer look

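Of 102 groups of 4 KO arrays examined, for named genes, mean signal and the 3′ minus 5′ signal, 7 held an array far from the other 3. Chance alone would give about 1 in 20, and control groups were not examined. H2-Aa was at 4.52 on KO E15.5 replicate 3, where the other pools of that group were at 6.47 to 6.74. On KO E15.5 replicate 4, Fcna was at 7.81 against 6.85 to 6.95 and Clec7a at 7.28 against 6.77 to 6.85. Prss35 was at 10.72 on KO E15.5 replicate 3, against 10.03 to 10.05. At E16.5, Cp was at 8.50 on KO replicate 4 against 7.99 to 8.06, Slc15a3 at 6.71 on KO replicate 2 against 7.03 to 7.05, and Hsd3b1 at 13.45 on KO replicate 2 against 13.63 to 13.66.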

How the results depend on the processing

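Of the genes followed through every alternative, none that passed reversed its direction. Some values that did not pass changed sign, such as Cyp21a1, from -0.32 to 0.35, and the median of the liver list, from -1.17 to 0.52. With 1 array left out, 53 to 175 genes passed over the day in KO, 0 to 19 in controls and 0 for the difference. Array weights gave 435 genes in KO, 1102 in controls and 6 for the difference (Bank1, Msr1 and Spint1 higher, Cd1d1, Cyp2f2 and Pcp4l1 lower), with weights from 0.193 for control E16.5 replicate 2 to 10.4 for control E16.5 replicate 3. A fit to the 8 KO arrays alone gave 73 genes, of which 66 were among the 123. In controls, the stricter 60th percentile filter gave 8 genes and the mean over probe sets 7. Of the alternatives chosen after seeing the data, leaving out the 4 liver-high KO arrays gave 62 genes in KO and 3 in controls, and leaving out KO E16.5 replicate 1 with control E16.5 replicate 2, the arrays of highest 3′ minus 5′ signal, gave 4 in controls and 151 in KO. The causes were not tested, beyond the smaller number of arrays in the fits that leave arrays out. With the replicate number as a block, 110 genes passed in KO, and with it as a random block within stage 129. The labels do not say whether samples of the same number share a litter. Quantile normalization gave 111 genes, centring on the 75th percentile 115, no filter 125 and a trended robust fit 128. At 4 pools a group, changes near 0.5 log2 units are mostly missed.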

Other observations

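Most of the 119 genes that rose belong to none of the lists. Only 13 are in any list, 8 of them in the macrophage list, where 559 of the 13642 genes tested are in a list. Those named here were noticed after their values were seen, so they are given as values. Mbp, the myelin basic protein, was at 8.20 to 8.45 in KO glands at E15.5 and at 9.03 to 9.55 at E16.5, and rose by 1.03 (limma adjusted p = 0.00183). Omg, the oligodendrocyte myelin glycoprotein, rose by 0.61 (limma adjusted p = 0.00827), and the sodium-sensing channel Scn7a by 0.77 (limma adjusted p = 0.00662). In controls these were 0.41, 0.21 and 0.59 higher. The axonemal genes Dnah2 and Cfap54 rose by 0.96 (limma adjusted p = 0.00197) and 0.85 (limma adjusted p = 0.0169), the second passing in 12 of the 16 fits that leave out 1 array.

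Genes of the circadian clock were looked at after Dbp and Per3 were seen to pass. Dbp rose by 0.78 (limma adjusted p = 0.0232) and Per3 by 0.47 (limma adjusted p = 0.0232), each passing in 10 of the 16 fits that leave out 1 array, and both were without overlap between KO stages. Nr1d2 was 0.37 higher (limma adjusted p = 0.377), Tef 0.16 and Nr1d1 0.10 higher, and Arntl differed by -0.25 (limma adjusted p = 0.622). In controls Dbp was 0.24 higher and Per3 0.00. The hour at which embryos were collected was not analysed here.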
